A study of Mus musculus with 8 samples.

Results

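Homologous recombination and the DNA damage checkpoint were followed here through 41 genes, chosen by symbol from a written list of recombination, Fanconi and checkpoint factors and found in the deposited tables of 53242 genes. The list was written with earlier results of these data known. All 41 had enough reads to be tested. After activation, 24 of them were decreased in 4A1 KO B cells and 0 were increased, beside 13.7% and 11.6% of all tested genes. The Fanconi helicase Brip1, the nuclease partner Eme1, the Fanconi protein Fancd2 and the ubiquitin ligase pair Brca1 and Bard1 each fell to between 0.207 and 0.247 of the control level by edgeR, and DESeq2 with normal shrinkage, which pulls noisy values towards zero, gave the 5 log2 fold changes between -1.80 and -1.17. By edgeR the log2 fold changes of the apical kinases Atm and Atr and of the break sensor Nbn lay between -0.10 and 0.17.

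RNA came from splenic B cells of C57BL/6 mice aged 8 to 12 weeks, kept in culture for 24 h in medium containing 40 ng/ml IL4. They grew on CD40LB, a fibroblast feeder line that displays CD40 ligand and had been irradiated with 120 Gy. Control mice were Eif4a1+/+ CD23-cre and 4A1 KO mice were Eif4a1fl/fl CD23-cre, so both genotypes carried the Cre transgene, which deletes in splenic immature B cells and not throughout the mouse. There were 4 libraries of each genotype, numbered so that 1 and 3 are male and 2 and 4 female, and so that 1 and 2 form batch A and 3 and 4 batch B. Replicate 1 of both genotypes was left out of the main tests because the submitters excluded it for low viability. It was kept in the tests that are said to be over all 8 libraries, and its values are printed wherever single libraries are listed. Replicates came from individual mice. Feeder cells were removed on a column before RNA extraction.

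The 6 libraries tested held 38488341 to 43210858 counts each, and 4A1 KO replicate 1 held 31727557. Eif4a1 itself measured 826, 748, 939 and 880 CPM (counts scaled to library size with edgeR's TMM method) in control replicates 1 to 4 and 597, 556, 641 and 689 CPM in 4A1 KO replicates 1 to 4, a log2 fold change of -0.44 ± 0.05 (SE, adjusted p = 0.000115). The floxed allele loses part of the gene, and the deposited gene count takes in exons outside that part. The ranges of marker sums cover replicates 2 to 4. B cell markers summed to between 12400 and 14800 CPM in control and between 13400 and 15900 CPM in 4A1 KO, sums to which Cd74 and Fcer2a contributed most. In replicate 1 they summed to 16800 CPM in control and 17900 CPM in 4A1 KO. Of the 12 markers 4 were decreased, namely Cd79a (-0.67), Cd79b (-0.89), Cd22 (-0.76) and Bank1 (-1.54). On adjusted p alone, Ebf1 (0.40), Fcer2a (0.30) and Cd74 (0.20) were higher and Pax5 (-0.23) and Blnk (-0.42) were lower. Ms4a1 (0.07) was among those that passed neither threshold. Of 15 fibroblast markers, 7 lay under 1 CPM in all 8 libraries and 2 at 0 counts, and their sum ranged from 31.2 to 61.7 CPM in control and from 28.2 to 40.2 CPM in 4A1 KO. Myeloid markers, 7 of 10 under 1 CPM and 3 at 0 counts, summed to between 8.67 and 11.8 CPM in control and between 14.2 and 16.4 CPM in 4A1 KO. In replicate 1 the myeloid sum was 14.7 CPM in control, inside the 4A1 KO range, and 15.1 CPM in 4A1 KO. T cell markers, 7 of 9 under 1 CPM and 2 at 0 counts, summed to between 1.19 and 2.38 CPM in control and between 1.26 and 1.77 CPM in 4A1 KO. Erythroid markers reached at most 0.099 CPM in the 6 libraries. In bulk RNA, fewer cells of a type and less RNA per cell cannot be told apart.

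Homologous recombination copies the sister chromatid to mend a broken chromosome. The MRN complex and its partners trim the break to a single-stranded tail, BRCA1 with BARD1, PALB2 and BRCA2 prepares that tail for strand exchange, and further accessory and RAD54 proteins help it find and invade its template. The Fanconi pathway sends DNA crosslinks and stalled forks to the same machinery, and the kinases ATM and ATR, through CHEK2 and CHEK1, hold the cell cycle meanwhile. Because the template is present only after replication, many of these genes are expressed in step with S phase and G2. Activated B cells divide fast and break their own DNA during class switching, and recombination factors are needed for them to proliferate.

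Each gene was tested for a genotype difference with edgeR's quasi-likelihood test on the raw counts, with batch and sex as covariates and n = 3 libraries per genotype. A gene was called decreased or increased where its Benjamini-Hochberg adjusted p over all genes was under 0.05 and its log2 fold change was beyond 0.5 in size. The 24 decreased members make up 58.5% of the 41, where 13.7% of the 14218 tested genes were called decreased. None of the members was called increased, where 11.6% of all tested genes were. At an unadjusted p under 0.05, 3 members were higher by edgeR, beside 29.2% of all tested genes, and DESeq2 likewise called 0 members increased. On adjusted p alone, whatever the size of the change, 30 members were lower, beside 26.7% of all tested genes, and 2 members, Fance and Atr, were higher, beside 26.3%. The remaining 9 members passed neither rule. The median log2 fold change over the members was -0.73, against 0.01 over all tested genes.

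**Figure D1:**
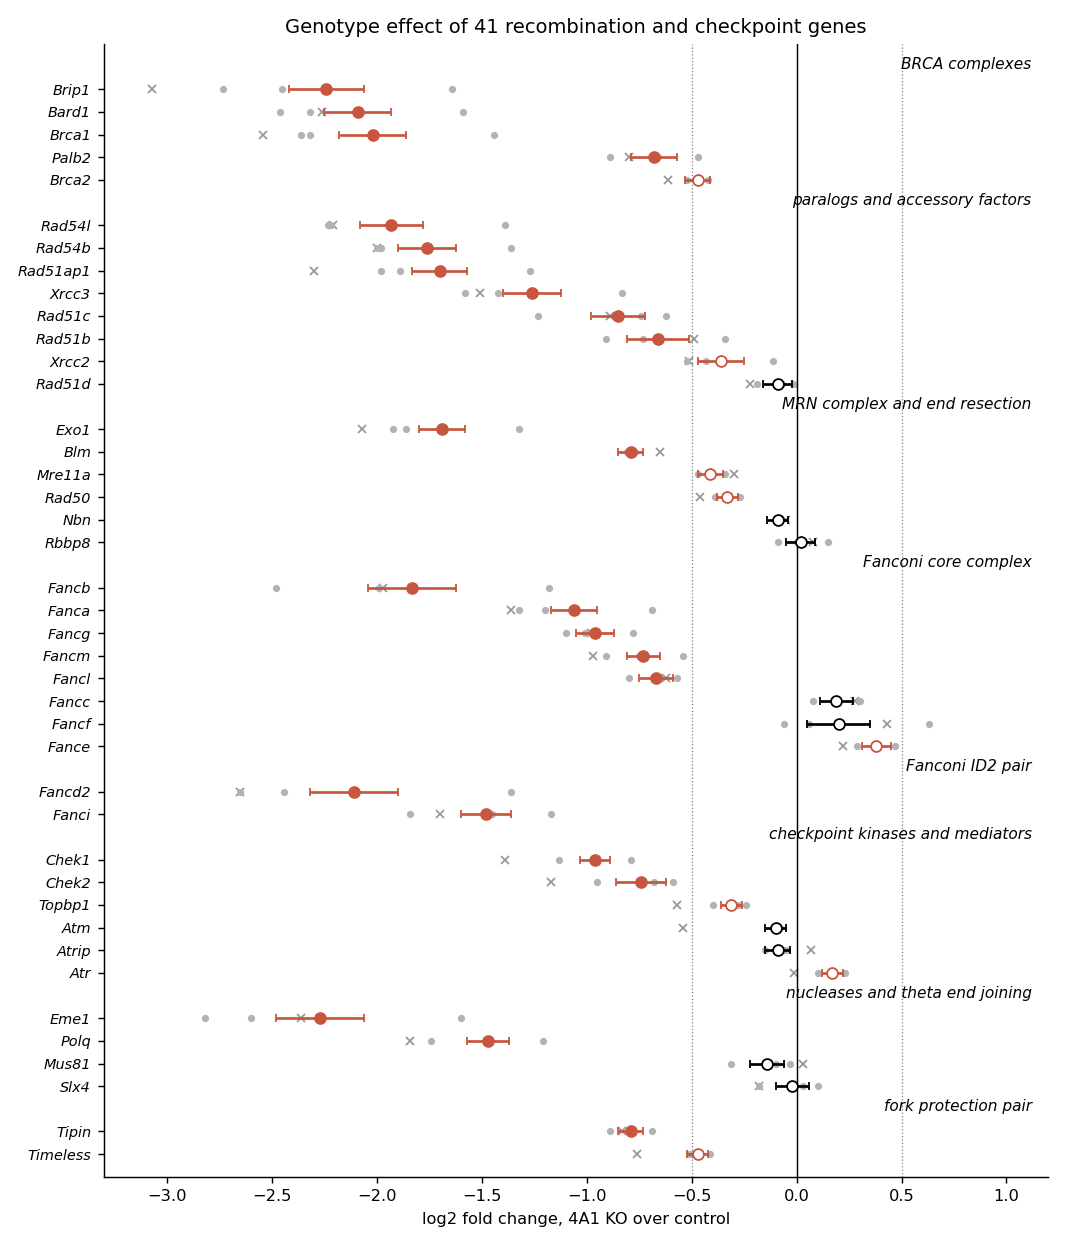
Log2 fold change of 4A1 KO over control (horizontal axis) for the 41 members, grouped by role. Large points with bars give the edgeR estimate ± SE from 6 libraries, filled where a member was called decreased, open red where it passed the adjusted p alone and open black where it passed neither. Small grey points are the replicate pairs 2 to 4, grey crosses are pair 1, and dotted lines mark the fold change threshold of 0.5. All 24 filled points lie left of -0.5, and Brip1, Eme1, Fancd2, Bard1 and Brca1 lie below -2.

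The fall was seen in each pair of same-numbered libraries. The median log2 ratio over members was -0.80 in pair 1, -0.74 in pair 2, -0.80 in pair 3 and -0.62 in pair 4. All 24 decreased members were lower in 4A1 KO in all 4 pairs. They had been called from pairs 2 to 4, so only pair 1 lay outside the selection. In CPM, every 4A1 KO library lay below every control library for 22 members over all 8 libraries, which holds for 19.5% of tested genes. Of these 22, 19 were among the decreased members, which were called from 6 of the same 8 libraries. Control replicate 1 was the lowest control library for all 24 decreased members, and 4A1 KO replicate 4 was the highest 4A1 KO library for all 24. Summed over the 41 members, CPM ranged from 2030 to 2360 in control replicates 2 to 4 and stood at 1700 in control replicate 1. In 4A1 KO the sum ranged from 1370 to 1660 in replicates 2 to 4 and stood at 1110 in replicate 1.

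The BRCA complexes had the lowest median log2 fold change of the role groups, -2.02, with 4 of 5 members decreased. The Fanconi ID2 pair, described below, had 2 of 2 decreased and a median of -1.80, and the difference was not tested. Brca1 (chr11:101379577-101442781, minus strand, GRCm39) encodes a ubiquitin ligase that promotes end resection. It measured 33.8, 60.9, 56.0 and 77.5 CPM in control replicates 1 to 4 and 5.77, 11.8, 11.2 and 28.6 CPM in 4A1 KO replicates 1 to 4. The genotypes did not overlap, with the highest 4A1 KO library below the lowest control library, and the log2 fold change was -2.02 ± 0.16 (SE, adjusted p = 2.64e-05), or -1.39 by DESeq2 with normal shrinkage. Bard1 (chr1:71066657-71142305, minus strand) encodes the obligate partner of BRCA1. It measured 14.9, 20.8, 19.2 and 28.1 CPM in control and 3.11, 4.15, 3.48 and 9.34 CPM in 4A1 KO, in replicate order. Its log2 fold change was -2.09 ± 0.16 (SE, adjusted p = 2.22e-05), again without overlap, and 4A1 KO replicate 4 stood above the other three. Brip1 (chr11:85948957-86092592, minus strand) encodes a helicase that binds BRCA1 and is also the Fanconi protein FANCJ. It measured 20.4, 43.1, 33.8 and 48.8 CPM in control and 2.41, 6.49, 6.19 and 15.7 CPM in 4A1 KO. Its log2 fold change of -2.24 ± 0.18 (SE, adjusted p = 2.54e-05) lay within its SE of the lowest among the members, and the libraries of pair 1 were the lowest of each genotype. By DESeq2 with normal shrinkage it was -1.48.

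Palb2 and Brca2, which act after BRCA1, fell less. Brca2 (chr5:150446057-150496080, plus strand) measured 36.7, 56.0, 52.3 and 64.8 CPM in control and 24.0, 40.6, 36.6 and 48.5 CPM in 4A1 KO. Control replicate 1 lay among the 4A1 KO libraries, and replicates 2 to 4 of the genotypes did not overlap. The log2 fold change of Brca2 was -0.47 ± 0.06 (SE, adjusted p = 0.000198), past the adjusted p and inside the fold change threshold. Palb2, which bridges BRCA1 and BRCA2, had a mean of 10.7 ± 2.11 CPM in control and 6.64 ± 1.08 CPM in 4A1 KO (SD, n = 3) and a log2 fold change of -0.68 ± 0.11 (SE, adjusted p = 0.00100).

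Among the paralogs and accessory factors of strand exchange 6 of 8 were decreased, with a median of -1.06. The 3 accessory factors fell most. Rad54l (chr4:115948561-115980894, minus strand) encodes RAD54, a motor protein that drives strand invasion. It measured 33.9, 57.2, 50.7 and 66.6 CPM in control and 7.30, 12.3, 10.8 and 25.3 CPM in 4A1 KO, with no overlap and a log2 fold change of -1.93 ± 0.15 (SE, adjusted p = 2.34e-05). Rad51ap1 (chr6:126899446-126916587, minus strand) encodes a DNA-binding protein that stimulates strand invasion. It measured 24.5, 37.7, 33.7 and 41.8 CPM in control and 4.95, 9.55, 9.10 and 17.3 CPM in 4A1 KO, with no overlap and a log2 fold change of -1.70 ± 0.13 (SE, adjusted p = 2.22e-05). Rad54b, the second RAD54 protein, had a log2 fold change of -1.76 ± 0.14 (SE). Of the exonic bases annotated for Rad54b, 33.7% also belong to Fsbp on the same strand, which had a log2 fold change of -1.49, so their reads cannot be told apart there.

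The 5 paralogs form complexes that assist strand exchange. Xrcc3 had a log2 fold change of -1.26, Rad51c of -0.85 and Rad51b of -0.66, and all 3 were decreased. Xrcc2 passed the adjusted p alone, with a log2 fold change of -0.36 ± 0.11 (SE, adjusted p = 0.0225). The adjusted p of Xrcc2 was 0.0745 without the replicate block, 0.0676 with DESeq2, 0.102 without replicate 3, 0.111 without replicate 4 and 0.0589 by limma on TPM. Rad51d, with 25.7 ± 1.99 CPM in control and 24.1 ± 1.26 CPM in 4A1 KO (SD, n = 3), had a log2 fold change of -0.09 (adjusted p = 0.333). Rad51c and Xrcc3 form one complex, and Rad51b, Rad51c, Rad51d and Xrcc2 form another, so the second holds both decreased members and members that were not called.

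In the MRN complex and end resection group, 2 of 6 members were decreased and the median was -0.37. The decreased pair carries out long-range resection. Exo1 (chr1:175708143-175741055, plus strand), an exonuclease that also serves mismatch repair, measured 36.4, 52.8, 56.3 and 68.0 CPM in control and 8.66, 14.5, 14.9 and 27.3 CPM in 4A1 KO. Its groups did not overlap, and its log2 fold change was -1.69 ± 0.11 (SE, adjusted p = 1.51e-05). Blm (chr7:80104481-80184899, minus strand), the helicase mutated in Bloom syndrome, measured 33.4, 45.6, 55.2 and 66.3 CPM in control and 21.3, 26.4, 31.5 and 38.9 CPM in 4A1 KO. Control replicate 1 and 4A1 KO replicate 4 overlapped, whereas the fall within pairs was similar, and the log2 fold change was -0.79 ± 0.06 (SE, adjusted p = 2.01e-05).

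The 3 subunits of the MRN complex, which binds broken ends and recruits ATM, had log2 fold changes between -0.41 and -0.09. Mre11a, the nuclease, had a log2 fold change of -0.41 ± 0.06 (SE, adjusted p = 0.000316) and Rad50, the ATPase, of -0.33 ± 0.05 (SE, adjusted p = 0.000702). Nbn, the subunit that ATM binds, had 104 ± 3.33 CPM in control and 97.5 ± 3.81 CPM in 4A1 KO (SD, n = 3) and a log2 fold change of -0.09 (adjusted p = 0.144). Rbbp8 encodes CtIP, which starts resection with MRN. It measured 37.7, 46.6, 39 and 46.7 CPM in control and 39.9, 43.9, 43.2 and 46.7 CPM in 4A1 KO, and the libraries of both genotypes were intermingled. Its log2 fold change was 0.02 ± 0.07 (SE, adjusted p = 0.819), and its sign turned to -0.04 without replicate 3.

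**Figure D2:**
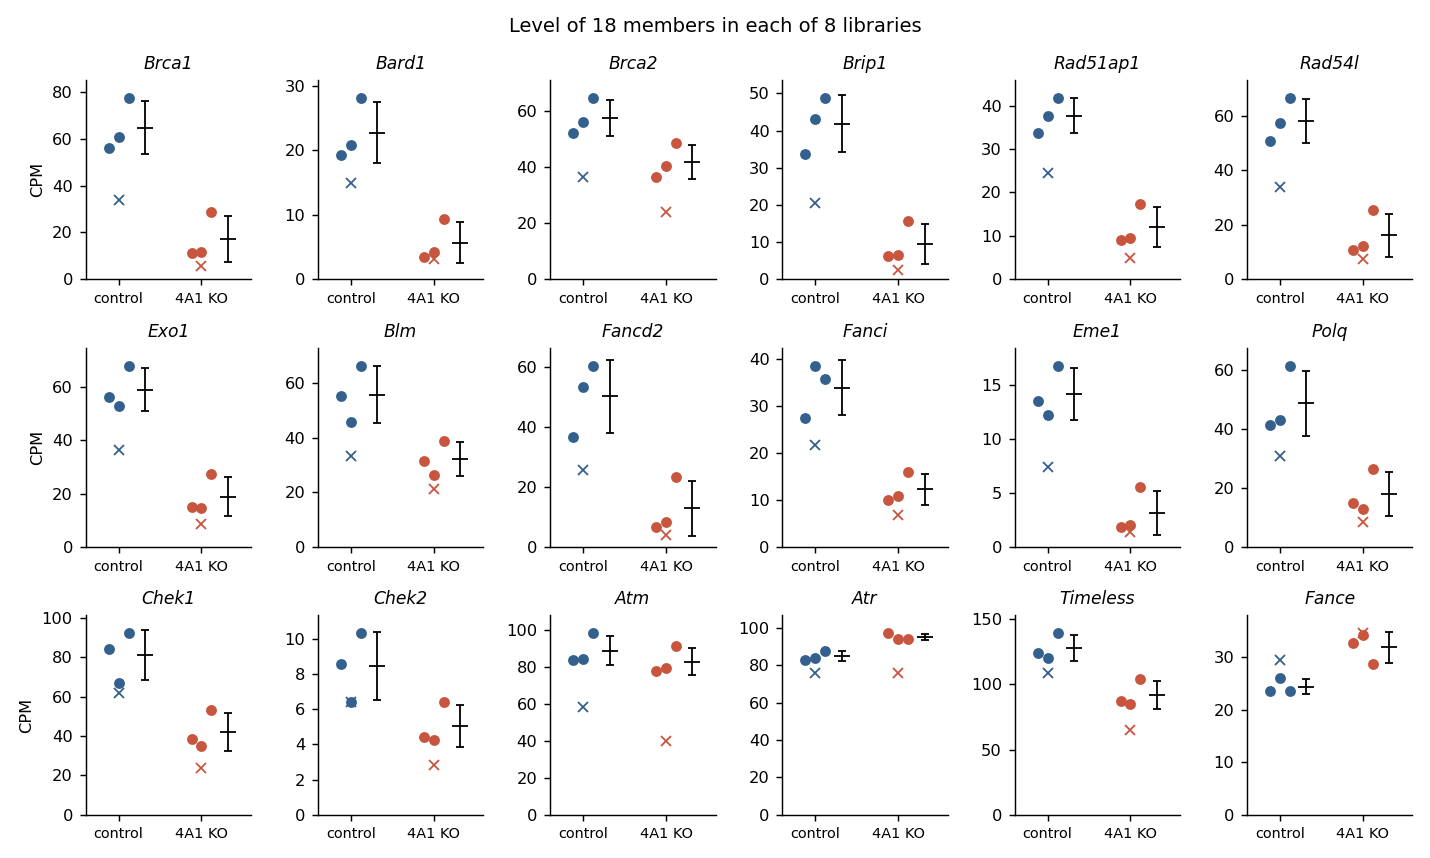
CPM (vertical axis, from 0, own scale in each panel) of 18 members in the 8 libraries. Circles are replicates 2 to 4, crosses are replicate 1, and the black mark and bar give the mean ± SD of replicates 2 to 4. Brca1, Bard1, Brip1, Rad51ap1, Rad54l, Exo1, Fancd2, Fanci, Eme1, Polq, Chek1 and Timeless show 4A1 KO libraries below all control libraries, whereas for Atm the ranges of the genotypes overlap.

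The Fanconi genes comprise a pair that is switched on by ubiquitin and the complex that attaches it. FANCD2 and FANCI form the ID2 clamp, which is ubiquitylated at crosslinked DNA, and both of their genes were decreased. Fancd2 (chr6:113508412-113573982, plus strand) measured 25.6, 53.3, 36.7 and 60.4 CPM in control and 4.06, 8.46, 6.76 and 23.4 CPM in 4A1 KO, so 4A1 KO replicate 4 came close to control replicate 1 without reaching it. Its log2 fold change was -2.11 ± 0.21 (SE, adjusted p = 6.33e-05), or -1.17 by DESeq2 with normal shrinkage, which lay behind Exo1 (-1.57), Rad51ap1 (-1.55) and Rad54b (-1.54) by that method. Fanci (chr7:79041677-79100027, plus strand) measured 21.7, 38.5, 27.3 and 35.6 CPM in control and 6.69, 10.8, 9.96 and 15.9 CPM in 4A1 KO. It did not overlap either, with a log2 fold change of -1.48 ± 0.12 (SE, adjusted p = 2.67e-05).

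In the core complex group, the ubiquitin ligase that acts on ID2 together with the translocase Fancm, 5 of 8 genes were decreased and the median was -0.70. Fancb had a log2 fold change of -1.83, Fanca of -1.06, Fancg of -0.96, Fancm of -0.73 and Fancl, the catalytic subunit, of -0.67. The other three, Fancc, Fance and Fancf, had positive log2 fold changes. Fance (chr17:28532488-28545546, plus strand) measured 29.5, 26.1, 23.6 and 23.5 CPM in control and 34.5, 34.2, 32.7 and 28.6 CPM in 4A1 KO. Its groups overlapped only where 4A1 KO replicate 4 lay below control replicate 1, and the log2 fold change was 0.38 ± 0.07 (SE, adjusted p = 0.00202), inside the fold change threshold. Fancc measured 17.9, 18.7, 18.6 and 17.2 CPM in control and 21.8, 19.8, 21.2 and 21.2 CPM in 4A1 KO. Every 4A1 KO library was above every control library, at a log2 fold change of 0.19 ± 0.08 (SE, adjusted p = 0.0790) that did not pass the test. With all 8 libraries it was 0.21 with an adjusted p of 0.0176, still inside the fold change threshold. Fancf measured 3.68, 3.61, 6.23 and 5.71 CPM in control and 4.95, 5.61, 6.51 and 5.48 CPM in 4A1 KO, with overlap and a log2 fold change of 0.20 ± 0.15 (SE, adjusted p = 0.296), which was 0 without replicate 2. FANCC, FANCE and FANCF form a module that holds the substrate, whereas FANCB and FANCL sit with the catalytic part and FANCA with FANCG.

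**Figure D3:**
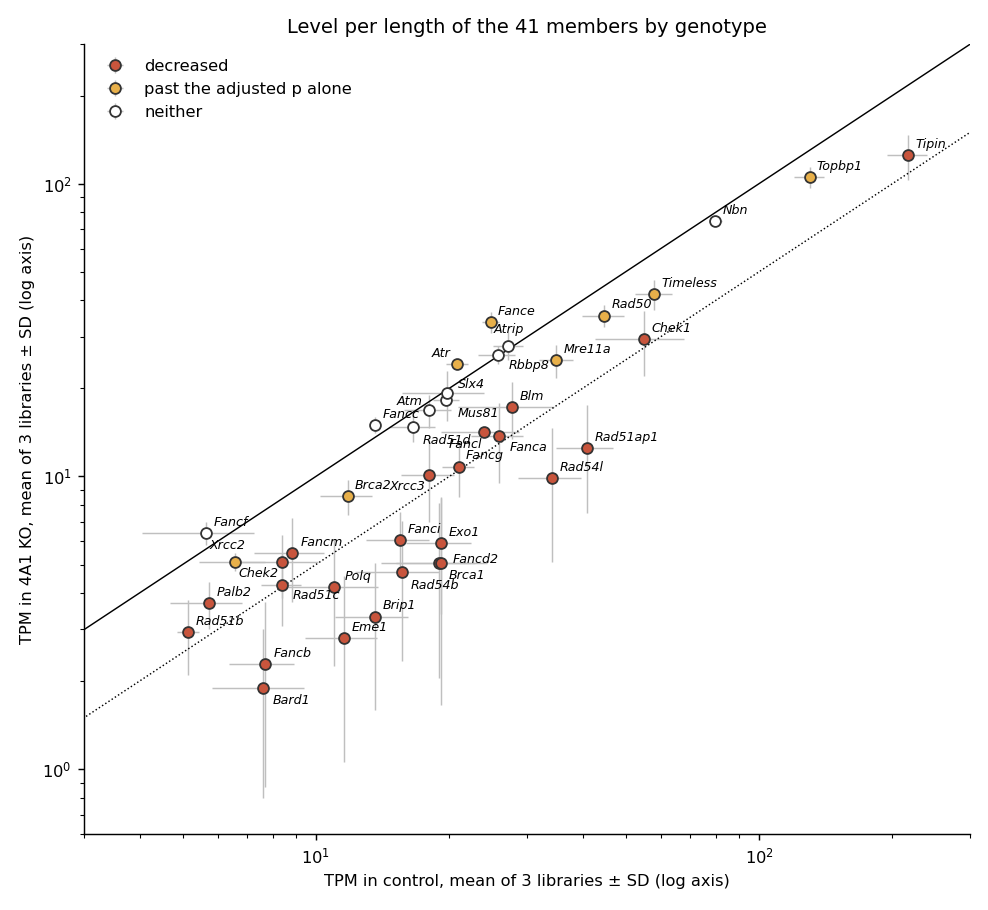
TPM in control (horizontal) against TPM in 4A1 KO (vertical), mean ± SD of 3 libraries each on log axes, for the 41 members. The solid line marks equal levels and the dotted line 50% of control. Tipin and Topbp1 are the highest members in both genotypes, and Bard1, Fancb and Eme1 are the lowest in 4A1 KO, all below the dotted line.

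Among the checkpoint genes 2 of 6 were decreased, both of them effector kinases, and the median was -0.20. Atm (chr9:53348097-53448236, minus strand), the kinase that answers double-strand breaks, measured 58.3, 84.4, 83.9 and 98.0 CPM in control and 40.0, 79.6, 77.5 and 91.4 CPM in 4A1 KO. The genotypes overlapped, and the log2 fold change was -0.10 ± 0.05 (SE, adjusted p = 0.123). Atr (chr9:95739650-95835263, plus strand), the kinase that answers single-stranded DNA at stalled forks, measured 76.2, 84.0, 82.8 and 87.9 CPM in control and 75.8, 94.4, 97.1 and 94.3 CPM in 4A1 KO. Replicates 2 to 4 were higher in 4A1 KO and replicate 1 was not, with a log2 fold change of 0.17 ± 0.05 (SE, adjusted p = 0.0252). The adjusted p of Atr was 0.0625 without the replicate block, 0.0615 with DESeq2, 0.0954 with all 8 libraries, 0.103 without replicate 2 and 0.158 without replicate 3. Atrip, which tethers ATR to DNA, had a log2 fold change of -0.09 (adjusted p = 0.237), and 10.1% of its exonic bases are also annotated to Trex1, which had a log2 fold change of -0.54.

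Chek1 (chr9:36614487-36638361, minus strand), the kinase downstream of ATR, measured 61.8, 67.0, 83.9 and 92.0 CPM in control and 23.5, 34.7, 38.3 and 53.1 CPM in 4A1 KO. No 4A1 KO library reached a control library, and the log2 fold change was -0.96 ± 0.07 (SE, adjusted p = 2.07e-05). Chek2 (chr5:110987826-111022011, plus strand), the kinase downstream of ATM, measured 6.38, 6.43, 8.57 and 10.3 CPM in control and 2.82, 4.26, 4.41 and 6.39 CPM in 4A1 KO. Its genotypes met where 4A1 KO replicate 4 reached control replicate 1, and the log2 fold change was -0.74 ± 0.12 (SE, adjusted p = 0.000786). Topbp1, which activates ATR, was among the most highly expressed members, with 331 ± 23.2 CPM in control and 268 ± 15.7 CPM in 4A1 KO (SD, n = 3), and it passed the adjusted p alone at a log2 fold change of -0.31 ± 0.05 (SE).

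Timeless and Tipin, which form a complex that holds the replication fork together and passes the stall signal to CHEK1, both passed the adjusted p. Timeless (chr10:128067926-128088810, plus strand) measured 109, 120, 124 and 139 CPM in control and 64.8, 84.6, 87.3 and 104 CPM in 4A1 KO. The groups did not overlap, and the log2 fold change of -0.47 ± 0.05 (SE, adjusted p = 8.53e-05) lay just inside the fold change threshold, which it passed with all 8 libraries at -0.54. Tipin, the smaller partner, fell further. It had 138 ± 11.2 CPM in control and 79.9 ± 10.7 CPM in 4A1 KO (SD, n = 3), and its log2 fold change was -0.79 ± 0.06 (SE, adjusted p = 1.65e-05).

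Among the nucleases and the theta polymerase, 2 of 4 members were decreased. Eme1 (chr11:94535822-94544812, minus strand), the non-catalytic partner of the MUS81 nuclease that cuts recombination intermediates, had the lowest log2 fold change of the members, within its SE of that of Brip1, which was the lower with all 8 libraries (-2.40 against -2.29). It measured 7.38, 12.2, 13.5 and 16.8 CPM in control and 1.43, 2.00, 1.90 and 5.55 CPM in 4A1 KO, at a log2 fold change of -2.27 ± 0.21 (SE, adjusted p = 4.83e-05). The smallest read count behind these values was 45, in 4A1 KO replicate 1, which was also the lowest count of any member in any library. Polq (chr16:36832108-36915779, plus strand) encodes the polymerase of theta-mediated end joining, a back-up route for resected breaks. It measured 30.7, 42.9, 41.4 and 61.3 CPM in control and 8.57, 12.8, 14.8 and 26.5 CPM in 4A1 KO, with no overlap and a log2 fold change of -1.47 ± 0.10 (SE, adjusted p = 1.53e-05).

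The partners of EME1 passed neither threshold. Mus81, the catalytic subunit, had 20.8 ± 1.63 CPM in control and 18.8 ± 0.433 CPM in 4A1 KO (SD, n = 3) and a log2 fold change of -0.14 (adjusted p = 0.184). Slx4, the scaffold that gathers these nucleases, measured 27.2, 23, 33.4 and 37.1 CPM in control and 24, 24.6, 34 and 32.6 CPM in 4A1 KO. The 4 libraries of batch A ranged from 23 to 27.2 CPM and those of batch B from 32.6 to 37.1 CPM, with both genotypes in each range. The log2 fold change was -0.02 ± 0.08 (SE, adjusted p = 0.815), turning to 0.06 without replicate 4.

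The TPM, an abundance that takes gene length into account, allows levels of different members to be set side by side. In control, Tipin was the highest at 217 ± 22.1 TPM, followed by Topbp1 at 130 ± 10.3 and Nbn at 79.7 ± 2.69 (SD, n = 3), each apart from the next by more than their SDs. At the low end Rad51b stood at 5.15 ± 0.292, Fancf at 5.65 ± 1.6 and Palb2 at 5.75 ± 1.06 TPM, which lay within their spread of each other. In 4A1 KO the lowest were Bard1 at 1.90 ± 1.10, Fancb at 2.29 ± 1.42 and Eme1 at 2.81 ± 1.75 TPM, also within their spread. Rad51ap1 and Rad54l were seventh and ninth in control, at 40.9 ± 6.04 and 34.1 ± 5.53 TPM, and stood at 12.5 ± 5.03 and 9.87 ± 4.77 TPM in 4A1 KO, below Atm at 16.8 ± 2.20 TPM, which they had exceeded in control. With limma on log2(TPM + 1), 24 members were decreased, where 11.8% of 12976 genes were, and all 24 were also decreased by counts. Exact permutation tests of the TPM over all 8 libraries exchanged them freely, without the pairing by batch and sex. Their unadjusted two-sided p for Brca1, Bard1 and Fancd2 was 0.0286, the smallest that 4 against 4 libraries allow. It was 0.0571 for the decreased members Palb2, Rad51b, Fancb and Fancm, 0.0857 for Blm and 0.171 for Brca2, and 6 libraries could not go below 0.1. Xrcc2, Topbp1, Timeless, Fancc and Fance, which were not called, also reached 0.0286 by this test, Fancc and Fance as higher in 4A1 KO. Across the 41 members, the log2 fold change had a Spearman rho of 0.164 with control TPM, 0.0713 with exonic length and -0.024 with the length of the gene. The TPM came from the same libraries as the fold changes and the lengths from the annotation, and the values are given as a description.

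Several members work as pairs, and the ratio of their TPM within a library does not depend on sequencing depth. The 11 ratios were chosen after the values had been seen and were not tested. For 3 of the 11 the genotypes did not overlap over 8 libraries. Eme1 over Mus81 was 0.305, 0.469, 0.610 and 0.696 in control and 0.0690, 0.107, 0.0933 and 0.260 in 4A1 KO, in replicate order. Chek1 over Atr was 2.13, 2.21, 2.60 and 3.10 in control and 0.817, 0.937, 1.21 and 1.48 in 4A1 KO. Chek2 over Atm was 0.604, 0.400, 0.492 and 0.498 in control and 0.356, 0.261, 0.304 and 0.337 in 4A1 KO. Each effector kinase was lower relative to its activator in all 4A1 KO libraries, which restates the values of the single genes and adds no separate support. In contrast, Bard1 over Brca1 was 0.505, 0.390, 0.396 and 0.414 in control and 0.610, 0.404, 0.360 and 0.370 in 4A1 KO, a mean log2 difference of 0.01, beside SDs of 0.17 in control and 0.35 in 4A1 KO. Fancd2 over Fanci ranged from 1.03 to 1.45 in control and from 0.453 to 1.15 in 4A1 KO, with 4A1 KO replicate 4 inside the control range.

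**Figure D4:**
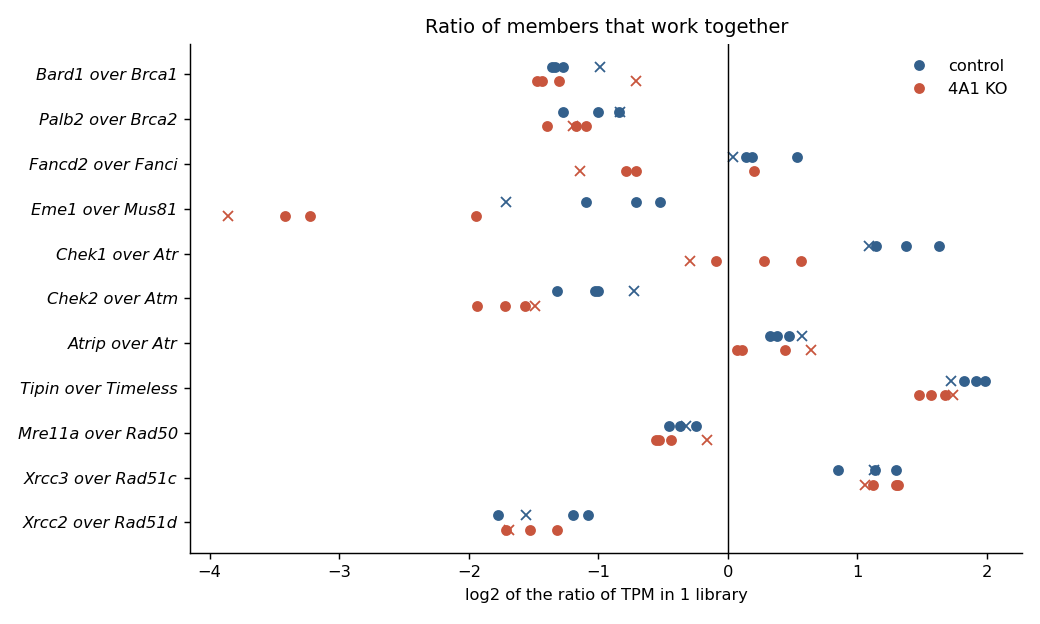
Log2 of the TPM ratio (horizontal axis) of 11 pairs of members that act together or in sequence, with 1 point per library. Circles are replicates 2 to 4 and crosses replicate 1. Eme1 over Mus81, Chek1 over Atr and Chek2 over Atm separate by genotype, and Bard1 over Brca1 does not.

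Promoters were searched for letters that mark cell cycle genes. E2F factors drive transcription at the G1 to S transition, and the heterotrimer NF-Y binds CCAAT boxes, which are frequent in genes of the later cycle. The windows span 250 bases before to 50 bases after the transcript start in the RefSeq table (GRCm38.p6), which held 32 of the 41 members. Rad51d, Rad54b, Xrcc2, Rad50, Nbn, Exo1, Rbbp8, Fancd2 and Tipin were not matched. The E2F letters TTTCCCGC, TTTGGCGC, TTTCGCGC or TTTGCCGC, on either strand, were in 6 of the 32 (18.8%), namely Bard1, Brca2, Chek2, Fancg, Rad51c and Topbp1. They were in 4.9% of the 9463 tested genes with a window and in 2.6% of all 27025 genes of the table. By outcome, 4 of 20 decreased members (20%) and 2 of 12 others (16.7%) held them. CCAAT, on either strand, was in 59.4% of members and in 43.5% of tested genes, with 60% of decreased members against 58.3% of the others. The letters TTTGAA or TTTAAA, the core of the CHR element, were in 15.6% of members and in 22.4% of tested genes, with 20% of decreased members against 8.33% of the others. A match of letters does not show binding, and none of these shares was tested. The stretches below lie before every start of the gene's own transcripts found in the window. They are shown for the 3 members whose E2F letters lie in such a stretch, whatever their fold change, and for the 3 members with the largest falls among those whose CCAAT letters do. The capitals mark the letters found, ATTGG being CCAAT on the other strand.
Bard1 promoter, chr1:71103148-71103207, minus strand, GRCm38.p6: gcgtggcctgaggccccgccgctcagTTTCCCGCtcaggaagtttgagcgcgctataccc
Brca2 promoter, chr5:150522427-150522486, plus strand, GRCm38.p6: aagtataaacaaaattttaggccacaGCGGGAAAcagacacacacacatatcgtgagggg
Chek2 promoter, chr5:110839805-110839864, plus strand, GRCm38.p6: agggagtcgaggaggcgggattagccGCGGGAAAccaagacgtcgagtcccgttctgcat
Brca1 promoter, chr11:101552009-101552068, minus strand, GRCm38.p6: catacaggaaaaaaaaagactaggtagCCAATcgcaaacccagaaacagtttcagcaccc
Brip1 promoter, chr11:86201218-86201277, minus strand, GRCm38.p6: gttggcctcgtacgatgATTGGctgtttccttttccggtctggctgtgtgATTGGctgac
Rad54l promoter, chr4:116123708-116123767, minus strand, GRCm38.p6: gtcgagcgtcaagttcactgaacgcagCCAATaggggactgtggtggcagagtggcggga

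The E2F letters began 209 bases before the start in Bard1, 168 in Brca2 and 152 in Chek2, and the fold changes of these genes ranged from -2.09 for Bard1 to -0.47 for Brca2 on the log2 scale. The CCAAT letters began 86 bases before the start in Brca1 and 51 bases in Rad54l, and Brip1 held matches at 34, 67 and 99 bases, of which the stretch shows the nearer pair.

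Other genes of the same pathways were counted in the same fit, in lists that were also chosen with earlier results of these data known. Of 27 further recombination genes 11 were decreased and 1 was increased, with a median of -0.37. Small adjusted p-values belonged to Rpa2, a subunit of the single-strand binding protein (log2 fold change -1.16), and to Dna2, a resection nuclease (-1.75). Of 16 further Fanconi and crosslink genes 3 were decreased and 0 increased by edgeR, with a median of -0.07, and by adjusted p the first were Faap24 (-1.15), a DNA-binding partner of FANCM, and Ube2t (-0.94), the enzyme that supplies ubiquitin to FANCL. Rev3l, the catalytic subunit of polymerase zeta, had the third smallest adjusted p (0.000985), at a log2 fold change of 0.37. Of 21 further checkpoint and break signalling genes 6 were decreased, with a median of -0.28. By adjusted p the first were the CDK-activating phosphatases Cdc25a (-1) and Cdc25b (-1.27) and Etaa1 (-0.84), an activator of ATR.

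Repair by routes other than recombination was counted likewise. Of 15 non-homologous end joining genes 2 were decreased, Xrcc6 (-0.66), which encodes Ku70, and the polymerase Poll (-0.60). Their median log2 fold change was 0.05, and Prkdc, the DNA-dependent protein kinase, had a value of -0.29. Of 7 mismatch repair genes 3 were decreased, with a median of -0.40, and Msh6 (-0.83) and Pms1 (-0.55) were among them. Of 21 tested excision repair genes 3 were decreased and 1 was increased, with a median of -0.03. By adjusted p the first were the uracil glycosylase Ung (-0.66), which was decreased, Ercc6 (0.53), which acts in transcription-coupled repair and was increased, and Parp1 (-0.37), which lay inside the fold change threshold. The shares decreased were 58.5% of members, 40.7% of the further recombination genes, 18.8% of the further Fanconi genes, 28.6% of the further checkpoint genes, 42.9% of mismatch repair genes, 13.3% of end joining genes and 14.3% of excision repair genes, beside 13.7% of all tested genes, and their differences were not tested.

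**Figure D5:**
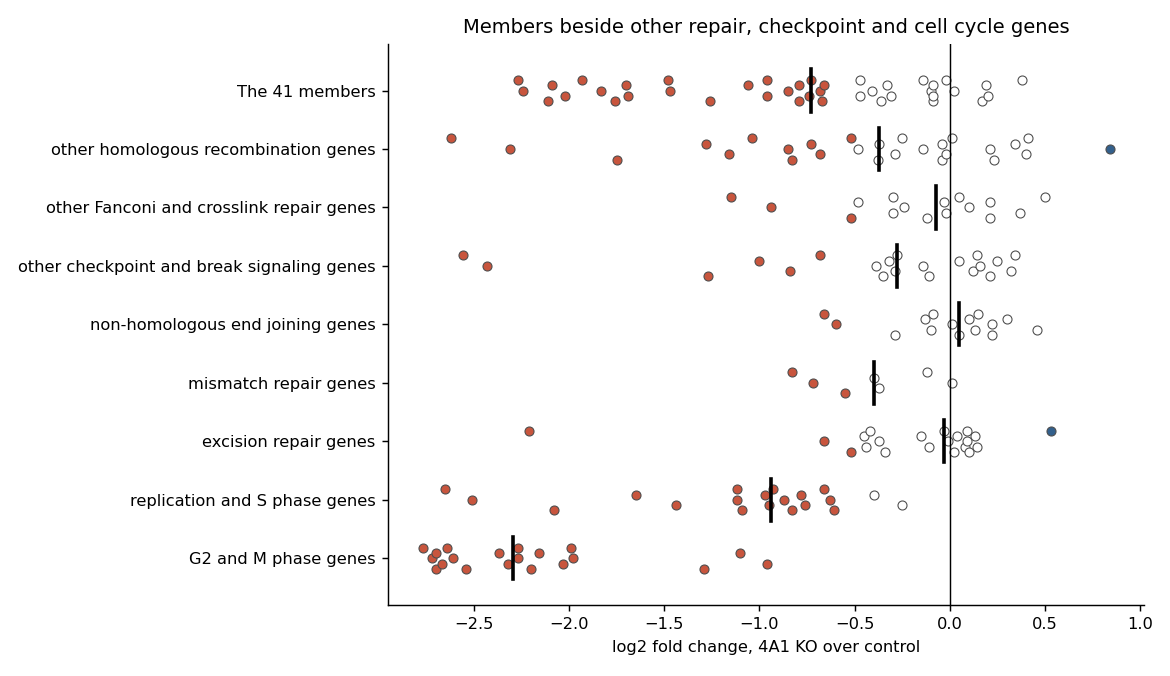
Log2 fold change of 4A1 KO over control (horizontal axis) of each tested gene in the members and in 8 other lists, with vertical offsets only to separate points. Filled red points were called decreased, filled blue points increased and open points neither, and black bars are medians. The members, with a median of -0.73, lie between the other recombination genes at -0.37 and the replication genes at -0.94.

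Genes of the cell cycle moved in the same libraries. All 20 G2 and M phase genes were decreased, with a median of -2.30. In replicates 2 to 4 their summed CPM ranged from 1350 to 2190 in control and from 270 to 774 in 4A1 KO, and in replicate 1 it was 935 and 176. The smallest adjusted p-values belonged to Cenpe (-1.98), Ccnb1 (-2.27) and Top2a (-2.03). Of 20 replication and S phase genes 18 were decreased, with a median of -0.94. The smallest adjusted p-values belonged to Fen1 (-1.09), Slbp (-0.93) and Mcm4 (-0.87). The summed CPM of the replication and S phase genes ranged from 6260 to 7010 in control and from 3350 to 4410 in 4A1 KO in replicates 2 to 4. In replicate 1 it was 5570 and 2770. In pair 4, where the members fell least, the G2 and M phase genes also fell least, at a median log2 ratio of -1.61 against -2.72, -2.83 and -2.62 in pairs 1 to 3. The part of the cell cycle in the members' fall was not tested. The genotype effect was also compared between sexes and between batches with interaction terms over all 8 libraries. These include the low-viability replicate 1, which is male and of batch A. By edgeR 0 of 41 members differed between the sexes at an adjusted p under 0.05 (0% of 14211 genes tested), and 2 did at an unadjusted p under 0.05 (2.85% of all genes). Between the batches 0 of 41 differed at an adjusted p under 0.05 (0.00704% of all genes), and 10 did at an unadjusted p under 0.05 (4.29% of all genes). No other tool was run for the interactions.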

How the data were processed

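Values for 8 libraries were deposited, 4 per genotype, and samples were grouped by their labels. The authors trimmed the reads (Trim Galore 0.6.6), mapped them to GRCm39 with HISAT2 2.1.0 and deposited raw counts per gene from SeqMonk over merged isoforms. The TPM values deposited by the authors came from StringTie 2.1.1. The handling of multi-mapping reads is not given in the sources used here.

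Counts were analysed with edgeR 4.0.16 in R 4.3.3 (TMM, filterByExpr, quasi-likelihood test, batch and sex as covariates) in replicates 2 to 4, and the tests were two-sided. In these 6 libraries, batch and sex equal the replicate number as a block. The pairing rests on the labels, and same-numbered libraries deviated together (mean r 0.379 across genes, lowest 0.305, other pairs -0.189). Replicates were from individual mice, as the study's methods state. For TPM, limma 3.58.1 was run on log2(TPM + 1), keeping genes whose mean was 1 TPM or more. Within-pair ratios used CPM with a prior count of 0.5. The fits were tested on simulated data.

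The 41 members, the role groups and the other lists were chosen with earlier results of these data known. Values in every library are given for Brca1, Bard1, Brca2, Rad51ap1, Rad54l, Exo1, Blm, Fancd2, Fanci, Atm, Atr, Chek1, Chek2, Timeless and Polq and for the 6 lowest and 6 highest fold changes, and the 3 genes with the smallest adjusted p are named from each other list, apart from genes that are not reported here. Fsbp and Trex1 were named after their values were seen. Gene positions came from GENCODE M39. Standard deviations are between libraries, and no counting interval was computed. Alternatives were DESeq2 1.42.0, other normalizations and filters, a TPM pseudocount of 0.1, no block, all 8 libraries, each replicate left out and glmTreat. Proteome data were not analysed here.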

Additional observations from a re-analysis of the deposited data

Results flagged for a closer look

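In 6 of 82 groups of 4 libraries (41 members in each genotype), 1 library stood apart from the other three by more than Dixon's 95% limit for the gap divided by the whole range, where chance alone gives about 4.1 such groups. In 4A1 KO, replicate 4 was high for Bard1 (9.34 CPM, nearest 4.15, ratio 0.832), Xrcc3 (12.3 CPM, nearest 6.76, ratio 0.832) and Eme1 (5.55 CPM, nearest 2.00, ratio 0.862), the direction in which this library stood for all 24 decreased members. 4A1 KO replicate 1 was low for Atr (75.8 CPM, nearest 94.3, ratio 0.868). Among controls, replicate 1 was low for Fancl (20.6 CPM, nearest 26.3, ratio 0.835) and replicate 2 was low for Atrip (52.9 CPM, nearest 56.1, ratio 0.913). Replicate 1 of both genotypes is the pair that the submitters left out for low viability. Without replicate 4 the log2 fold change was -2.39 for Bard1, -1.50 for Xrcc3 and -2.72 for Eme1.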

How the results depend on the processing

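By counts, 24 members were decreased under 9 of 12 alternatives (DESeq2's size factors or upper quartile scaling in edgeR, DESeq2 with and without shrinkage, both other filters, no replicate block, and without replicate 2 or 3), 25 with all 8 libraries, 25 without replicate 4 and 20 with glmTreat, under which Palb2, Rad51b, Fancl and Chek2 were lost. In all 12 no member was called increased, by edgeR or by DESeq2. The members' median ranged from -0.80 to -0.64, the latter without replicate 3 and with normal shrinkage. Without the replicate block the same number of 24 members was decreased, with a median of -0.71, and over all genes 1658 were decreased and 1342 increased. Over all genes glmTreat called 987 decreased and 640 increased, and DESeq2 with normal shrinkage called 1089 increased. Atr and Xrcc2, which had passed the adjusted p alone, each lost it with DESeq2, without the block and with some replicates left out, and Atr also with all 8 libraries. Timeless passed both thresholds with all 8 libraries (-0.54) and without replicate 4 (-0.50). Signs turned only in members near 0 when a replicate was left out: by counts Rbbp8 (-0.04 to 0.07, negative without replicate 3) and Slx4 (-0.08 to 0.06, positive without replicate 4), and by TPM Rad51d (-0.28 to 0.01), Rbbp8 (-0.04 to 0.08), Atrip (-0.11 to 0.13) and Slx4 (-0.07 to 0.02). The TPM count of decreased members ranged from 23 to 25, and it was 23 without the block, where Fancm was lost. DESeq2 with normal shrinkage gave smaller falls that stayed called, -1.17 for Fancd2, -1.48 for Brip1, -1.39 for Brca1, -1.40 for Rad54l and -1.80 for Bard1 and Eme1. Of the ratios, only Xrcc3 over Rad51c moved beyond the spread between libraries, from 0.09 in TPM to -0.46 in CPM, and these alternatives were chosen after seeing the data. The causes were not tested.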
